A study of Mus musculus with 4 samples.

Results

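Antisense peaks are stretches of the genome where the sequenced fragments were assigned to the strand opposite to an annotated gene. They were taken as all peaks that the authors' annotation marked antisense, 661 of 15511 peaks in replicate 1 and 975 of 22570 in replicate 2, or 1636 of 38081 in all. No filter on low values was applied, so every one of these peaks entered the counts below. Here a host is the annotated gene on the other strand, and tags are the sequenced fragments counted in a peak.

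The libraries came from mouse bone-marrow-derived macrophages (BMDMs), which are macrophages grown from bone marrow cells; the labels name no strain, age, genotype or stimulus. The series has 4 samples, 2 immunoprecipitates of IGF2BP2 and 2 inputs, and the inputs are not analysed here. The labels give 2 antibodies that do not match: one against IGF2BP2 is listed among the characteristics, and the protocol describes a Flag antibody. They leave unsaid if the replicates are separate cultures or animals, and how the strand of the RNA was kept during library preparation, so the tests below compare these libraries, and any error in assigning strand was not tested.

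IGF2BP2 binds RNA and is known as a reader of N6-methyladenosine (m6A), a mark that lies mostly in coding sequence and 3' UTRs of mRNAs and often at the motif GGAC. RNA from the strand opposite a gene can be an antisense long non-coding RNA, a transcript that starts near a promoter and runs away from it, or an RNA of a neighbouring gene that continues past its polyadenylation site. It can also arise during reverse transcription and library preparation, when copied DNA is read with the wrong orientation.

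Of the 8 macrophage markers examined, 6 had a peak on their own strand in replicate 1 and 6 in replicate 2, though not the same 6 (Fcgr1 in replicate 1 only, Cd68 in replicate 2 only), with Csf1r (932 and 1421 tags) and Adgre1 (421 and 661 tags) the strongest, while Lyz2 had none. Of the markers of neutrophils, T cells, B cells, fibroblasts and erythroid cells, at most 1 per list had a peak in a replicate, and none of these carried more than 10 tags.

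The reference sequence of the antisense strand is shown first, at the summits of positions found in both replicates. A 30-nt window around the replicate 1 summit was read on the strand of the peak where 1 annotated exon of the host or of another gene covered it and no UTR overlapped it, which was possible for 36 of 121 positions. The positions printed are the strong ones at repeats, those opposite exons of Apoe, Unc5a and Tmem132a, and examples at which the sense strand also carried a peak. They come from GENCODE transcript sequences and are written 5' to 3' with GGAC in capitals, with coordinates on GRCm38.
Gm26870, chr9:3000554-3000583, plus strand: tccacctttttcagttttcctcgccatatt
Gm26917, chr17:39845030-39845059, minus strand: agctcctcccacccgccgagccgactttct
Gm42418, chr17:39848640-39848669, minus strand: ggcatcgGGACgggcgaacccacacgcgac
Apoe, chr7:19696972-19697001, plus strand: ccgagtcgggcctgtgccgcctgcacctct
Unc5a, chr13:55004530-55004559, minus strand: ggatcttgaaggcactggggcccaccaggg
Tmem132a, chr19:10859692-10859721, plus strand: ccttgtcgtctgtcacagccagtgcctgct
Tmem132a, chr19:10860058-10860087, plus strand: gGGACaccagtaccctgtgggaaggGGACa
Marcks, chr10:37136381-37136410, plus strand: ccggggctctccgcccgccgcgccctcggc
Sirpa, chr2:129627957-129627986, minus strand: cctgggttatttccctggcgttcttctcgg
Iqgap1, chr7:80723840-80723869, plus strand: gttagcttctttaggccagtctggatcttc
GGAC was present in 2 of the 36 windows, those of Gm42418 and of the Tmem132a window that holds it at both ends. The other windows did not hold these letters, which says nothing of sequence outside them.

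Across whole peaks, the share holding GGAC was lower in antisense peaks than in peaks on the strand of their gene. Sequence was available for peaks lying within 1 exon, 226 of 661 antisense peaks (34.2%) and 326 of 975 (33.4%). GGAC occurred in 38.5% of these in replicate 1 (exact 95% interval 32.1 to 45.2%) and 40.8% in replicate 2 (35.4 to 46.3%). On the other strand of the same stretches, which is the strand of the host's mRNA, it occurred in 48.7% and 49.1%. Sense genic peaks, those the authors placed in the UTRs, coding sequence, introns or non-coding exons of a gene on its own strand, held it in 57.0% and 57.7%. Antisense stretches were shorter, with medians of 149.5 and 155 nt against 194 and 208 nt, and per kb the motif occurred 3.91 and 4.23 times on the antisense strand against 4.65 and 4.41 in sense genic peaks. In windows of equal length, 100 nt at the summit, the shares were 28.6% (22.6 to 35.2%) and 31.6% (26.6 to 36.9%) against 37.5% and 36.7%. The antisense interval of replicate 2 thus took in the sense genic share. On the other strand of the sense genic windows the share was 29% in both replicates, inside both antisense intervals. For whole sense genic peaks it was 48.1% and 49.7% on that strand, above the antisense shares, but in longer stretches. Whether the lower antisense share goes beyond a difference between the strands of exons was not tested. The degenerate m6A consensus DRACH, which takes in every GGAC not followed by G, was found in 72.1% of antisense stretches in both replicates, against 82.7% and 84.0% on their other strand and 93.0% and 93.3% of sense genic peaks. The GC content was 55.8% and 55.3% in antisense stretches and 51.5% and 51.1% in sense genic peaks. These shares are descriptions, since peaks of a gene share sequence.

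Antisense peaks were weak. They made up 4.26% and 4.32% of the peaks but 2.42% and 1.85% of the tags in peaks (4586 and 5987 tags). The median antisense peak held 4 tags in both replicates, against 8 and 9 in sense genic peaks and 4 and 4 in intergenic peaks. Peaks with 3 tags, the lowest number in the lists, were 32.2% and 25.9% of the antisense class and 1.97% and 1.46% of the sense genic class. The tags were concentrated: the 10 strongest antisense peaks held 32.4% and 18.8% of them.

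A strength of 10 or more tags was reached by 47 antisense peaks in replicate 1 (7.11%) and 79 in replicate 2 (8.10%), where 33.9% and 43.9% of all peaks reached it. By Fisher's exact test these shares were under those of sense genic peaks, 37.6% and 48.6%, with odds ratios of 0.127 (adjusted p = 2.70e-70) and 0.0931 (adjusted p = 4.73e-159). Among intergenic peaks they were 9.82% and 14.8%. The odds ratio against these was 0.703 in replicate 1, short of the threshold of 0.05 (exact test, adjusted p = 0.0616), and 0.506 in replicate 2 (adjusted p = 1.24e-07). All tests are two-sided Fisher's exact tests with Benjamini-Hochberg adjustment over the 16 planned tests; they treat peaks as independent and cover counting error only.

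Length gave a mixed picture. A length of 300 nt or more was found in 58 (8.77%) and 126 (12.9%) antisense peaks, where 19.7% and 26.2% of all peaks had it. Sense genic peaks had it in 20.8% and 27.6% (odds ratios 0.366 and 0.390, Fisher's exact adjusted p = 4.96e-16 and 1.67e-26), and intergenic peaks in 14.5% and 19.5% (odds ratios 0.569 and 0.611, adjusted p = 3.76e-04 and 7.69e-06). Among peaks of 10 or more tags the direction against sense genic peaks turned. Of the 47 strong antisense peaks in replicate 1, 66.0% were 300 nt or longer against 43.7% of strong sense genic peaks (odds ratio 2.50, Fisher's exact adjusted p = 0.00346), and of the 79 in replicate 2, 74.7% against 48.1% (odds ratio 3.19, adjusted p = 3.20e-06). At the other end, 61 (9.23%) and 67 (6.87%) antisense peaks were 50 nt or shorter, against 2.56% and 1.79% of sense genic peaks.

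The peaks lay opposite 518 host genes in replicate 1 and 670 in replicate 2. The 179 hosts with an antisense peak in both replicates were 34.6% and 26.7% of these. Most hosts had 1 antisense peak (441 and 519), and 7 and 19 had 5 or more. Protein-coding genes formed the bulk of the hosts (474 and 611), 2.15% and 2.77% of all annotated protein-coding genes, and 232 (48.9%) and 329 (53.8%) of them also had a peak on their own strand. None of the peaks with a matched host lay on that host's own strand, and 3 and 5 peaks had a host identifier without a match in the annotation.

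The share of genes with an antisense peak was higher among genes with more sense tags. The share of protein-coding genes with one was 1.41% and 1.74% for genes with no sense tags. It was 5.96% and 5.72% for genes with 20 to 99 sense tags, and 18.2% and 14.0% for genes with 100 or more but under 500. Of the 27 and 79 genes with 500 or more sense tags, 55.6% (exact 95% interval 35.3 to 74.5%) and 49.4% (37.9 to 60.9%) had one. The part of gene length and of expression in this was not tested.

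Within their hosts, antisense peaks lay mostly opposite introns, yet more often opposite exons than the exons' length. At the midpoint, 57.5% and 54.3% of the peaks were opposite an intron, 22.4% and 23.2% opposite a coding exon, and 15.4% and 17.6% opposite an exon part without coding sequence in a protein-coding gene. Counting peaks inside the host, 41.9% (38.1 to 45.8%) and 44.8% (41.6 to 48.0%) were opposite an exon, where exons made up on average 20.3% and 21.3% of the host. Within 1 kb of the host's start lay 6.57% (4.80 to 8.75%) and 8.25% (6.58 to 10.2%) of the peaks, and within 1 kb of its end 10.9% (8.58 to 13.5%) and 11.7% (9.72 to 13.9%), against an average 5.92% and 6.23% of the host's span for either. The final 20% of the host's length held 36.9% and 43.0% of the peaks, and the first 20% held 14.4% and 12.9%.

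Reproducibility was first measured as the share of antisense peaks that shared 1 bp or more, strand included, with any peak of the other replicate. In replicate 1, 123 antisense peaks (18.6%, exact 95% interval 15.7 to 21.8%) were found again, and in replicate 2, 124 (12.7%, 10.7 to 15.0%), where 34.8% and 23.6% of all peaks were. Of these, 121 in each replicate were overlapped by a peak that was antisense there too. Sense genic peaks were found again in 36.9% and 25.2% of cases (odds ratios 0.391 and 0.431, Fisher's exact adjusted p = 2.47e-23 and 7.07e-21). Against intergenic peaks, found again in 21.5% and 13.1%, the odds ratios of 0.833 and 0.969 did not pass (exact test, adjusted p = 0.150 and 0.817).

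At equal tags the classes lay closer together. For peaks of 3 to 5 tags, 12.5% of antisense, 10.9% of sense genic and 11.2% of intergenic peaks of replicate 1 were found again, and 7.16%, 5.18% and 5.62% in replicate 2. For 10 to 19 tags the shares were 53.3%, 55.1% and 52.1% in replicate 1 and 34.5%, 30.7% and 32.5% in replicate 2, with antisense intervals of 34.3 to 71.7% and 22.5 to 48.1%. At 20 or more tags there were 17 and 21 antisense peaks, of which 58.8% (32.9 to 81.6%) and 85.7% (63.7 to 97.0%) were found again, against 73.5% and 58.0% of sense genic peaks. Those found again include peaks at the repeat hosts Gm26870, Gm26917 and Gm42418 described below, in replicate 1 with 381, 138, 84, 83, 80 and 75 tags. Their placement is uncertain, and the shares were not recomputed without them. The classes were not tested within tag classes, which allowed partners of any strength. A further test was limited to peaks of 10 or more tags, with partners in the other replicate held to the same limit. It ended the call against sense genic peaks, with odds ratios of 0.551 (exact test, adjusted p = 0.0616) and 0.779 (adjusted p = 0.416). The peaks at repeat hosts entered it too.

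**Figure D1:**
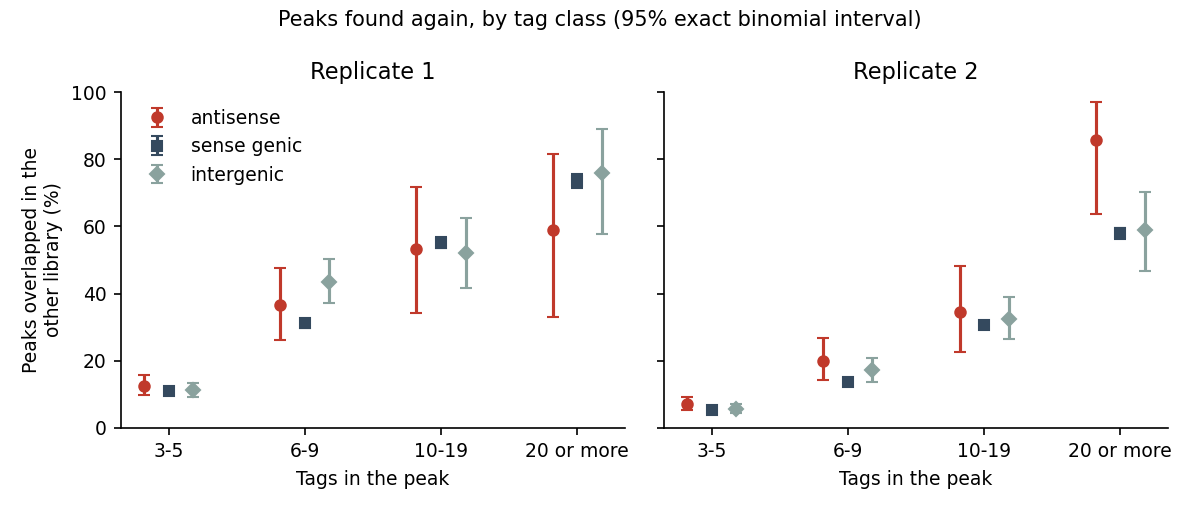
Share of peaks (y axis, %) overlapped on the same strand by a peak of the other replicate, by tags in the peak (x axis), for antisense, sense genic and intergenic peaks; points are shares and bars exact binomial 95% intervals, 1 panel per replicate. The share rises with tags in all 3 classes, and the antisense interval takes in the sense genic share in all tag classes of replicate 1. In replicate 2 the antisense interval lies just above the sense genic share for 3 to 5, 6 to 9 and 20 or more tags. The class of 20 or more tags includes antisense peaks at repeat hosts, whose placement is uncertain.

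The 121 positions that were antisense in both replicates lay opposite 88 hosts. Their summits were a median of 26 nt apart between replicates, and 37 (30.6%) were within 10 nt. Their log2 tags had Pearson's r of 0.822 and Spearman's rho of 0.622 between replicates; without the 9 positions at the repeat hosts described next, the values were 0.659 and 0.556 over 112 positions. The 121 positions of replicate 1 had 114 distinct partners in replicate 2, so some replicate 2 peaks entered more than once. These correlations are across positions of the same libraries and carry no test. At 39 of the 121 positions both replicates had 3 to 5 tags.

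**Figure D2:**
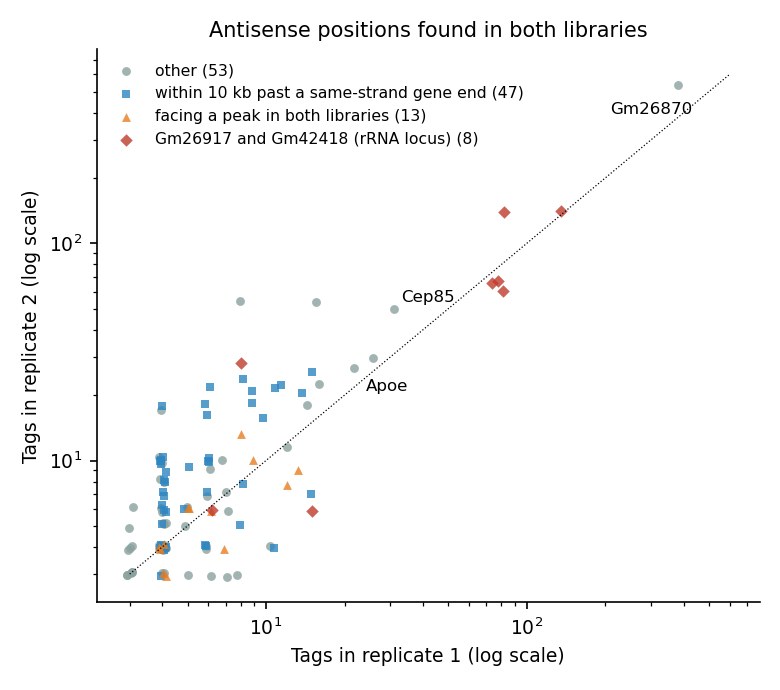
Tags in replicate 1 (x axis, log scale) against replicate 2 (y axis, log scale) for the 121 shared antisense positions, with points moved slightly at random so that ties can be seen; the dotted line marks equal tags. The 8 positions opposite Gm26917 and Gm42418 and the 1 opposite Gm26870 include the strongest, the 47 within 10 kb past a same-strand gene end reach 15 and 25 tags, and the 13 that faced a peak in both replicates stay at or below 13.

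The strongest shared positions were at repeated sequence. Gm26870, a lincRNA gene at the start of the assembled chromosome 9 in a stretch known for the major satellite repeat, had an antisense peak of 381 tags at 3000315 to 3000630 in replicate 1 and of 525 tags at 3000281 to 3000630 in replicate 2. In replicate 1 the sense strand carried a peak of 255 tags there, and in replicate 2 no sense peak. Gm26917 and Gm42418, lincRNA genes annotated on the plus strand of chromosome 17 beside the rRNA gene CT010467.1 on the minus strand, had 7 antisense peaks with 406 tags and 7 with 396 tags (Gm26917), and 1 with 83 tags and 2 with 68 tags (Gm42418). Neither had a sense peak, and the antisense peaks lay on the strand of the rRNA gene. Reads of repeated sequence can be placed at any copy, so these positions are uncertain.

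Outside these repeats the highest-ranked shared position was in an intron of Cep85, which encodes a centrosomal protein. It had 30 tags at chromosome 4, 134162996 to 134163340 in replicate 1 and 51 at 134162878 to 134163290 in replicate 2. Another peak in the same intron stretch had 16 and 22 tags at nearly the same ends in both replicates, while the gene's own strand had 0 and 4 tags in peaks. No annotated gene lay on the strand of these peaks.

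Apoe, which encodes the lipid carrier apolipoprotein E made in quantity by macrophages, had the highest-ranked shared position opposite a coding exon of a gene with sense peaks. Its antisense peak held 22 tags at chromosome 7, 19696867 to 19697064 in replicate 1 and 26 at 19696855 to 19697091 in replicate 2. The sense strand of Apoe carried 88 and 137 tags in peaks, none of them overlapping this position, and each replicate had a further antisense peak of 4 tags elsewhere in the gene. The nearest same-strand gene ending before it, Zfp296, was 116211 nt away.

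Some antisense peaks overlapped another annotated gene of their own strand: 38 (5.75%) in replicate 1 and 77 (7.90%) in replicate 2. Of peaks the authors marked intergenic, 366 (27.9%) and 563 (27.8%) overlapped a gene of their own strand in the annotation used here. They stayed in the intergenic class when strength, length, being found again and facing were compared. The largest group of such antisense peaks was opposite Gm20388, a read-through gene model spanning 119910841 to 124345722 on the plus strand of chromosome 8, and inside Ankrd11, a chromatin regulator on the minus strand. It held 11 peaks with 97 tags and 14 with 197 tags, next to 7 and 12 peaks with 131 and 260 tags that the authors assigned to Ankrd11 itself. For these peaks the antisense mark depends on which gene model is read, and RNA of Ankrd11 cannot be told apart from antisense RNA of the host.

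One set opposite Gm20388 was strong in 1 library. Between 123426409 and 123433702 on the minus strand of chromosome 8, in a stretch with no annotated gene on that strand, replicate 1 had 5 peaks of 79, 217, 70, 32 and 281 tags. Replicate 2 had 2 peaks there, of 17 and 18 tags, and none overlapped a peak of replicate 1. This set made the antisense total of Gm20388 788 tags in replicate 1 against 263 in replicate 2. The mitochondrial genome gave 1 antisense peak in each replicate at different places, 27 tags opposite mt-Cytb in replicate 1 and 50 tags opposite mt-Nd2 in replicate 2.

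Most antisense peaks had no gene on their own strand (623 and 898), and these lay past the 3' end of a same-strand gene more often than before the start of one. Within 5 kb past an annotated end were 173 peaks (27.8%, 24.3 to 31.5%) in replicate 1 and 291 (32.4%, 29.4 to 35.6%) in replicate 2. Within 5 kb before a start were 49 (7.87%) and 62 (6.90%). Within 20 kb the shares were 53.8% and 60.1% past an end and 22.8% and 22.0% before a start.

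The genes that ended just upstream mostly had sense peaks of their own. A sense peak was present in 63.6% and 65.3% of cases for the gene that ended within 5 kb before the antisense peak, and in 10.2% and 16.1% for the gene that started within 5 kb after it. Of all 55536 annotated genes, of every type, 8.93% and 10.9% had a sense peak. These are shares of genes, whereas the shares before them are of antisense peaks, in which a gene with several peaks counts several times. Intergenic peaks with no own-strand gene in the annotation lay within 5 kb past an end in 44.8% and 49.2% of cases. The odds ratios of antisense against intergenic peaks were 0.473 and 0.494 (Fisher's exact test, adjusted p = 3.29e-11 and 6.94e-15 over 10 tests added after the data were seen). Among peaks of 10 or more tags that difference did not pass, with 47.2% against 49.2% in replicate 1 (exact test, adjusted p = 1.00) and 57.4% against 64.2% in replicate 2 (adjusted p = 0.361).

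**Figure D3:**
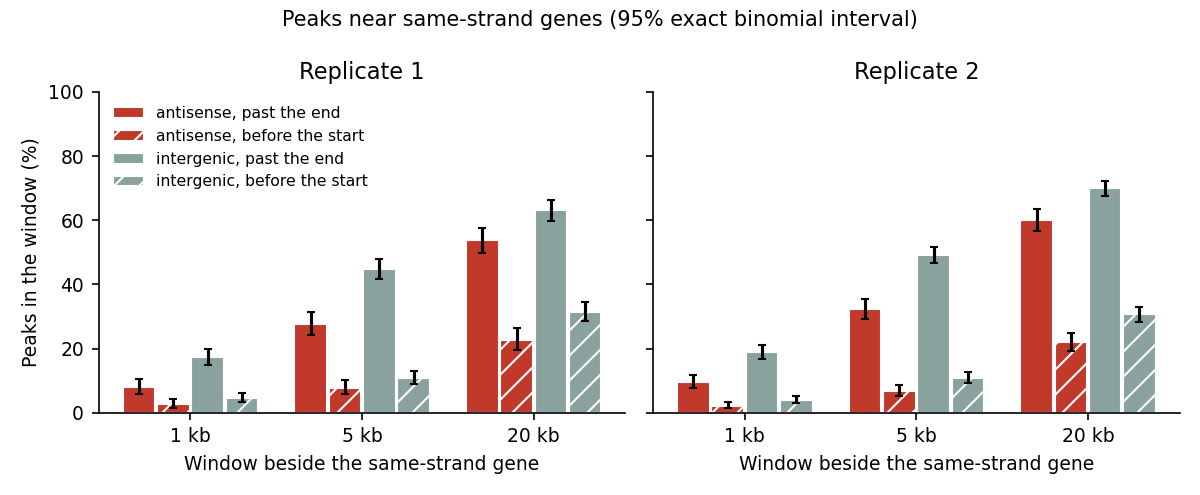
Share of peaks without an own-strand gene (y axis, %) lying within 1, 5 or 20 kb (x axis) past the end of a same-strand gene (plain bars) or before the start of one (hatched bars), for antisense and intergenic peaks, with exact binomial 95% intervals, 1 panel per replicate. In every window the share past an end exceeds the share before a start, for antisense peaks 27.8% against 7.87% at 5 kb in replicate 1.

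Antisense peaks within 5 kb past an end were found again in 25.4% and 14.8% of cases, against 14.2% and 10.9% of those farther away. The difference passed in replicate 1 (odds ratio 2.06, Fisher's exact adjusted p = 0.00227) and not in replicate 2 (odds ratio 1.42, adjusted p = 0.102). Both shares near an end include the 7 peaks of each replicate opposite Gm26917, past the rRNA gene CT010467.1, all of them found again. The test was not repeated without these uncertain repeat positions. Intergenic peaks had a like pattern, at 23.8% and 13.6% within 5 kb past an end against 14.0% and 9.56% farther away, and the gene that ended before them had a sense peak in 68.7% and 74.8% of cases. For 70 genes, 56 of them protein-coding and CT010467.1 among the others, antisense peaks lay within 10 kb past their end in both replicates. The same limit of 10 kb was used for the peaks past gene ends described below. Sense peaks in both replicates were present for 45 of these (64.3%), and 37 had an antisense peak overlapped in the other replicate.

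Hk3, which encodes a hexokinase of myeloid cells, ended on chromosome 13 at 55005985 and had a run whose replicate 1 peaks were all found again. Its sense peaks held 170 and 353 tags. Past its end and opposite Unc5a, a netrin receptor gene with no sense peak, lay 5 antisense peaks with 57 tags in replicate 1 and 9 with 152 tags in replicate 2. The peaks were between 1293 and 5818 nt past the end in replicate 1, with 11, 15, 14, 9 and 8 tags, and all 5 were found again. In replicate 2 they began 614 to 6012 nt past the end with 6 to 25 tags, and 5 of the 9 were found again.

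Further examples, chosen after their values were seen, follow. Past Ap2a2, a subunit of the clathrin adaptor, and opposite the mucin gene Muc6, 3 peaks held 72 tags in replicate 1 and 6 held 90 in replicate 2. The farthest within 10 kb began 4778 and 9988 nt past the end. Only the first was overlapped, 10 tags at 798 nt and 16 tags at 714 nt, and a peak of 52 tags in replicate 1 had no partner. Past Hnrnpab, an RNA-binding protein gene, and opposite Phykpl, 6 peaks held 32 tags and 11 held 71, and these exceeded the gene's own sense tags of 15 and 41. Another shared position opposite Phykpl, of 6 and 4 tags, lay beyond the 10 kb limit, 10099 nt past the end in replicate 1.

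Past Slc15a3, a lysosomal peptide transporter gene, and opposite Tmem132a, 3 peaks held 23 tags and 3 held 37, and all were found again, beginning 131 to 888 nt past the end. The windows printed above for Tmem132a come from some of these peaks, not all. Past Tgfb1, the gene of transforming growth factor beta 1, no antisense peak lay nearer than 6805 nt, and 3 peaks with 27 tags and 3 with 25 lay opposite Ccdc97. Past Plxna1, a semaphorin receptor gene with 462 and 658 sense tags, 2 peaks held 17 tags and 2 held 30. Past Cerk, the ceramide kinase gene, 3 peaks held 13 tags and 6 held 47.

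**Figure D4:**
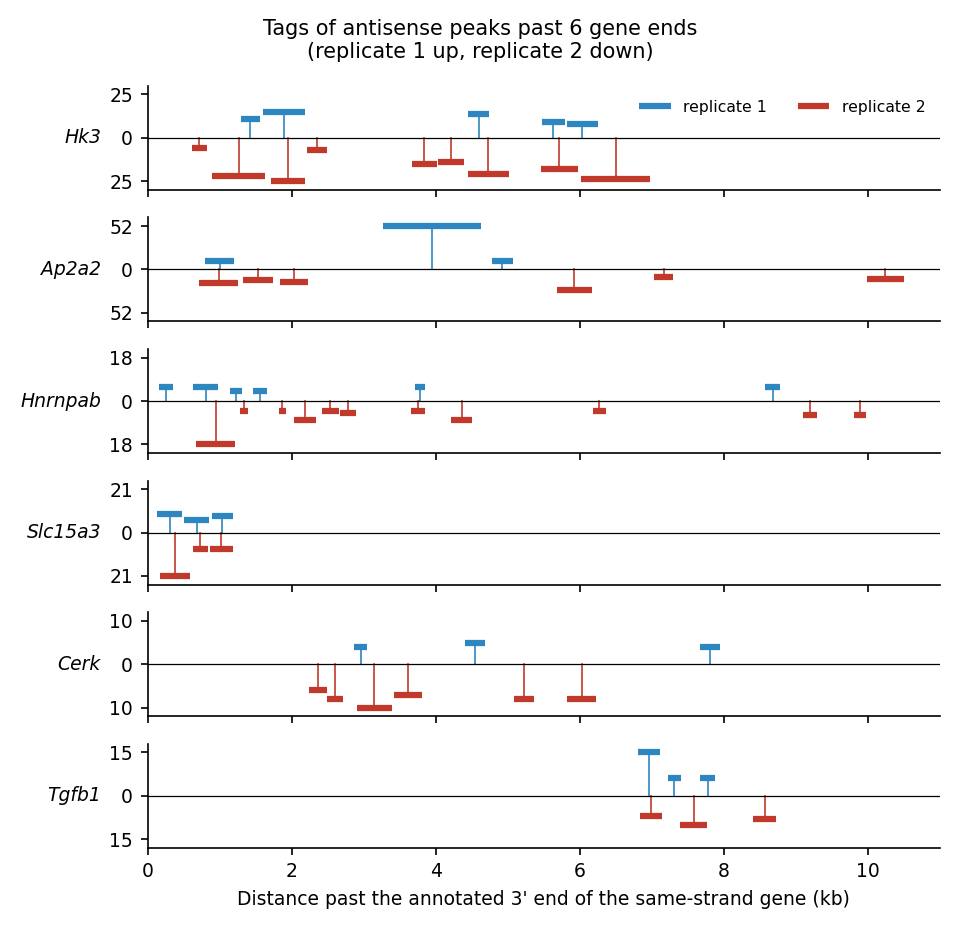
Tags of each antisense peak within 10 kb (y axis, replicate 1 upward and replicate 2 downward, scales differ between rows) by distance past the annotated 3' end of the same-strand gene (x axis, kb), for 6 genes. Horizontal bars span the peak. The Slc15a3 peaks all begin within 1 kb, those past Hk3 begin 614 to 6012 nt away, and those past Tgfb1 begin at 6805 nt.

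Psap and Cdh23 each had antisense peaks past their end. These neighbours on chromosome 10 converge, with 3' ends at 60302597 and 60302748. Past the end of Psap, which encodes the lysosomal protein prosaposin, and opposite Cdh23 lay 3 peaks with 28 tags and 5 with 57 tags, none overlapping between replicates. On the other strand, opposite Psap and past the end of Cdh23, lay 8 peaks with 52 tags and 9 with 44, of which 4 and 4 were found again. Sense tags in peaks were 589 and 1467 for Psap but 3 and 0 for Cdh23, a cadherin known from hair cells.

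A small group of antisense peaks lay directly opposite a sense peak. An antisense peak faced a peak on the other strand of the same library in 66 cases in replicate 1 (9.98%) and 113 in replicate 2 (11.6%), where 0.999% and 1.17% of all peaks did. Facing is reciprocal, and the facing peak was sense genic in all but 1 case, so the 0.532% and 0.629% of sense genic peaks that faced a peak reflect the same pairs in a larger class and carry no separate test. Intergenic peaks did so in 1.29% and 1.33% (odds ratios 8.46 and 9.71, Fisher's exact adjusted p = 3.06e-18 and 8.33e-33). An antisense peak lies opposite a gene by definition, whereas an intergenic one does not. A peak opposite a sense genic peak would mostly be classed antisense, so this contrast was largely set in advance by the classes. No conclusion is drawn from it.

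In these pairs the sense peak was the larger. It had more tags in 60 of 66 pairs and 106 of 113, with medians of 23 and 21 tags against 4 on the antisense strand in both replicates. The sense peak was mostly in coding sequence (40.9% and 46.9%) or an intron (36.4% and 26.5%). The facing antisense peaks were short, with median lengths of 86.5 and 95 nt against 174 and 189 nt for the others. They were found again in 27.3% and 22.1% of cases against 17.6% and 11.5%, which passed in replicate 2 (adjusted p = 0.00319, Fisher's exact test) and not in replicate 1 (adjusted p = 0.0737). Most strong sense peaks had no opposite partner, but the share with one was above that of all sense genic peaks (0.532% and 0.629%). Of sense genic peaks with 50 or more tags, 13 of 247 (5.26%) and 40 of 681 (5.87%) had one. With 100 or more tags, 3 of 58 (5.17%) and 19 of 156 (12.2%) did.

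Facing antisense peaks often ended exactly where an exon of the host ended. Leaving out the outer ends of genes, 16 of 66 (24.2%) and 24 of 113 (21.2%) had an end at an exon border. Of antisense peaks facing no peak, 3.55% and 2.92% did (odds ratios 8.70 and 8.97, Fisher's exact adjusted p = 8.89e-08 and 7.21e-11). The groups differed in place: 69.7% and 61.1% of facing peaks had sequence within 1 exon, against 30.3% and 29.8% of the others. No comparison limited to peaks at exons was made, so the part of place in this contrast was not tested. Sense peaks in coding sequence had such an end in 57.5% and 58.5% of cases and sense intronic peaks in 3.19% and 4.21%. The source of these tags was not tested, and the program that set the peak ends is not known.

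The following pairs are examples chosen after their values were seen. In Itgb1, the beta 1 integrin gene, antisense peaks of 6 tags ended at 128685959 on chromosome 8 in both replicates, facing sense peaks of 37 and 54 tags. The sense peak of replicate 2 ended at the same base. In Sirpa, an inhibitory receptor of phagocytes, peaks of 5 and 6 tags ended at 129627985 on chromosome 2 in both replicates, facing 35 and 47 tags. The Kmt2d pair of replicate 2 had identical extents on both strands, 98861050 to 98861164 on chromosome 15, with 6 antisense and 18 sense tags. Marcks, the gene of an actin-linked kinase substrate in macrophages, had 2 facing peaks of 8 and 12 tags in replicate 1 and 13 and 8 in replicate 2, against a sense peak of 97 and 110 tags.

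Peaks past a gene end and facing peaks were largely separate groups. Among antisense peaks with no own-strand gene, 4.62% and 3.44% of those within 5 kb past a gene end faced another peak. Of those farther away, 58 of 450 (12.9%) and 99 of 607 (16.3%) did (odds ratios 0.328 and 0.183, Fisher's exact adjusted p = 0.00296 and 7.40e-09). Most antisense peaks with no own-strand gene were thus in neither group. GGAC was in 28.3% and 21.7% of facing peaks with sequence and in 39.1% and 44.9% of the same stretches on the other strand. Antisense peaks that faced none held it in 41.1% and 45.9%, but these stretches were longer, with medians of 159 and 177 nt against 82.5 and 94 nt. Per kb the motif occurred 2.67 and 2.82 times in facing and 4.09 and 4.47 times in the other antisense peaks, and these values were not tested.

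Antisense peaks in both replicates were counted in 8 gene lists. Of protein-coding genes, 0.735% had an antisense peak in both replicates. In the lysosome list 7 of 28 genes did, in the actin and adhesion list 6 of 28 and in the macrophage identity list 5 of 28. The lists of TSC and mTORC1 genes, PPARG and alternative activation, and classical activation each had 1 of 24, known antisense pairs 1 of 28 and the m6A machinery 0 of 20. The median gene of every list had 0 antisense tags. Named members of the lysosome, actin and macrophage lists also carried many sense tags, from 66 in Ctsl to 1052 in Sirpa in replicate 1, and over all genes the share of hosts was higher with more sense tags; the part of this in the lists' counts was not tested.

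In the lysosome list, Psap had 10 and 9 antisense peaks with 66 and 44 tags. The cathepsin genes, which encode lysosomal proteases, had few tags each: Ctsb 8 and 9, Ctsd 8 and 27, and Ctsl 4 and 12. The 6 antisense peaks of Ctsd in replicate 2 each had 4 to 6 tags, and 3 of them faced a sense peak.

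In the macrophage list, Apoe came first with 26 and 30 antisense tags. Sirpa had 14 and 16 tags, and Gpnmb, a lysosomal glycoprotein of lipid-loaded macrophages, had 10 and 34. A Gpnmb peak of 6 and 7 tags began at the same base in both replicates, 49043996 on chromosome 6, was 27 and 26 nt long, and faced no peak. Mrc1, the mannose receptor, had 1 peak of 6 and 5 tags in each replicate, at different places.

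In the actin and adhesion list, Plec, the gene of the linker protein plectin, had 10 and 18 antisense tags, none at shared positions. Itgb1 had 6 and 6 tags. Iqgap1, a scaffold protein gene, had 1 facing peak of 4 tags at the same place in both replicates, and Ahnak had 4 and 16 tags. Akt2, a kinase upstream of mTORC1, had 1 peak of 3 tags in each replicate, in introns at different places. Zeb2, a transcription factor gene, had 3 and 4 antisense peaks with 15 and 22 tags, the nearest 1406 nt before the start of Zeb2os, its known antisense partner. One position, in an intron at 45086483 to 45086582 on chromosome 2 in replicate 1, was found again.

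The genes in the series title had little or no antisense signal. Tsc1 and Pparg had no antisense peak in either replicate. The files list only peaks of at least 3 tags, so antisense RNA of these genes below that number was not detectable. Igf2bp2 had 1 antisense peak of 4 tags in replicate 1, in an intron at 22115462 to 22115648 on chromosome 16, and none in replicate 2.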

How the data were processed

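Each immunoprecipitation library had 1 peak list. The authors deposited for each peak a tag count, a whole number that is not normalized, and a maximum height, the coverage signal at its highest point, per the file headers; length, summit, region and gene identifier stood beside them. The submitters' processing notes name bcl2fastq, TopHat2 and the build GRCm38. Which program called peaks, at what threshold, and whether inputs entered the calling is not given in the sources used here; the sequencing depth is unknown.

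The members and lists were chosen with earlier results of these data known. Antisense peaks were those marked so in the authors' region field; peaks were otherwise classed by the region covering most of them. Genes, exons and exon sequences came from GENCODE release 21 for mouse (GRCm38), in which 55536 genes were used. Of promoter sequences from RefSeq (GRCm38.p6) lying inside 1 exon, 2183 of 2183 were identical to the exon sequence read here. Without a genome sequence, introns were not searched for motifs. Overlap needed 1 bp. Overlap counting was tested on simulated peaks. Shares have exact (Clopper-Pearson) 95% intervals, which, like the tests, cover counting error only, without molecular identifiers. Two-sided Fisher's exact tests were adjusted by Benjamini-Hochberg over 16 tests, and over 10 further tests (gene ends, facing peaks, exon borders) chosen after seeing the data. Named genes were the 20 shared positions highest by mean rank of tags, up to 4 hosts per list found in both replicates, and Tsc1, Pparg and Igf2bp2; other genes were chosen after their values were seen. Not every named position is reported here. Python 3.11.15, numpy 2.4.6, pandas 2.3.3, scipy 1.17.1, statsmodels 0.14.6 and matplotlib 3.10.9 were used.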

Additional observations from a re-analysis of the deposited data

How the results depend on the processing

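Of 92 values recomputed under an alternative, 67 kept their direction and their side of the threshold of 0.05 or, for counts and shares, stayed within their interval. With strand ignored, the odds ratio of being found again against intergenic peaks changed direction, to 1.42 (adjusted p = 0.00147) and 1.55 (adjusted p = 3.43e-05, Fisher's exact test as throughout), since sense peaks opposite an antisense peak then counted. Without passing before or after, it also changed direction with overlap of 50% of both peaks (1.09 and 1.19) and, in replicate 2, in the stronger 50% (1.19) and with 10 or more tags (1.55). Against sense genic peaks it lost the call in the stronger 50% of each list (0.663 and 0.725) and with 10 or more tags (0.551 and 0.779), where fewer peaks entered. In both settings the partner in the other replicate had to pass the same limit. For 10 or more tags against intergenic peaks, nuclear chromosomes alone gave 0.688 in replicate 1, which passed, and a threshold of 20 tags gave 1.02, which did not. For length, a threshold of 500 nt gave 0.639 in replicate 1, no longer passing; with 10 or more tags the odds ratios were 2.50 and 3.19 against sense genic peaks, and 0.750 and 1.12 against intergenic peaks, neither of which passed. For facing peaks against intergenic peaks, a contrast largely set by the classes, they were 2.13 and 1.94 with 10 or more tags, not passing. These came from 3 antisense peaks in each replicate, with the facing peak held to the same limit. GGAC in 100 nt at the summit was found in 28.6% and 31.6%, in windows shorter than most peaks, and 41.1% of replicate 2 peaks were opposite an exon by their summit. Among alternatives added after seeing the data, peaks of 10 or more tags gave 0.925 and 0.751 for gene ends against intergenic peaks, not passing, and a window of 1 kb gave 2.10 for being found again near a gene end in replicate 2, which passed; the cause was not tested.

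No paired analysis was possible because the input libraries that share the replicate numbers have no values analysed here, and each replicate was tested alone, so leaving out a replicate gives no further value. Few tags limit these values: 32.2% and 25.9% of antisense peaks had 3 tags, as did 28.6% and 22.5% of intergenic peaks.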

Other observations

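Several hosts outside the named positions and lists, chosen after their values were seen, had many weak antisense peaks. Reps2 on the X chromosome had 5 peaks with 26 tags in replicate 1 and 6 with 24 tags in replicate 2, none of them overlapping between replicates and none with a sense peak in the gene. The authors marked 9 peaks with 39 tags opposite Ank in replicate 2 that lay inside Otulin, a deubiquitinase gene of the other strand, against 1 peak of 6 tags in replicate 1.

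Antisense peaks past the end of the colony-stimulating factor receptor gene Csf1r, which defines macrophages, were small beside its sense tags. A single position opposite Hmgxb3, beginning 70 nt past the end of Csf1r, had 8 tags in replicate 1 and 5 in replicate 2. Past the end of Cyba, a subunit of the phagocyte oxidase, 3 peaks held 12 tags and 2 held 26. Past Tet3, a gene of a DNA demethylase with 291 and 1019 sense tags, 3 peaks held 12 tags and 1 held 9.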
